A study of Mus musculus with 3 samples.

Results

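Integrins and syndecans are the receptors through which cells hold the matrix around them, and their transcripts were measured here in single stromal cells of mouse fat. Members were all genes whose symbol begins with Itga or Itgb, or is Sdc1, Sdc2, Sdc3 or Sdc4, which gave 35 of 32285 genes: 18 alpha subunits, 9 beta subunits, 4 syndecans and 4 genes that share the symbol but encode no subunit. The rule uses gene symbols and no measured value. Cells came from the stromal vascular fraction of the subcutaneous inguinal depot, which is what collagenase-digested fat leaves once floating adipocytes are removed, and were sorted for the absence of CD31, an endothelial protein, and CD45, a leukocyte protein. The donors were wild-type male C57BL/6J mice aged 8 weeks, untreated, and 3 droplet libraries, labelled as replicates and called mouse 1, 2 and 3 below, were made from them. All 3 belong to 1 condition, and the study counts as many mice for its single-cell work as there are libraries. The comparisons are therefore between cell classes within the same libraries, a contrast that the study draws between DPP4+ stem cells, ICAM1+ preadipocytes and regulatory cells.

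Integrins are pairs of 1 alpha and 1 beta chain, and the pair decides the ligand: collagens, laminins, or the arginine-glycine-aspartate sequence of fibronectin and vitronectin. They link the matrix to actin through talin, vinculin and the kinases of focal adhesions, and several of them release latent TGF-beta from its carrier. Syndecans are transmembrane core proteins whose heparan sulphate chains hold growth factors and cooperate with integrins at adhesions. In fat, precursor cells exchange a fibrillar, fibronectin-rich matrix for a basement membrane of type IV collagen and laminin as they become adipocytes.

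Reference sequence is given for the 3 members on which results turn and for which a window upstream of the gene start could be read: Itgb7, which had the largest fitted fold between progenitors and preadipocytes, and Itga5 and Sdc4, the only members called in the Cd44 split. The sequences are from RefSeq on GRCm38.p6, in which 25 of the 35 members had such a window, and each runs 5′ to 3′ on the minus strand, the strand of its gene. They were searched on both strands for 8 motifs: the AP-1 site TGANTCA, the E-box CACGTG, the NF-Y site CCAAT, the GC box GGGCGG, the TEAD site GGAATG, the RUNX site TGTGGT, the core promoter box TATAAA and the NF-kB consensus. Capitals mark the matches.
Itgb7, chr15:102231945-102232185: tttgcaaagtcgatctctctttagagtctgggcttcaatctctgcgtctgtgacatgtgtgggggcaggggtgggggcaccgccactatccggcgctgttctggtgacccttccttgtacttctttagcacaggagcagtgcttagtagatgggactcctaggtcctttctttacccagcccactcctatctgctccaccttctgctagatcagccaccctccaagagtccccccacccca
Itga5, chr15:103366792-103367041: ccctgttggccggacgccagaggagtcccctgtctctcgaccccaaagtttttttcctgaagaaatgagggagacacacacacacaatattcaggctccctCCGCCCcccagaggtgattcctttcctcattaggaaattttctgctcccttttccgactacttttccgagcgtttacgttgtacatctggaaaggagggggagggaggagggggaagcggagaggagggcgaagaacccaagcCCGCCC
Sdc4, chr2:164443189-164443438: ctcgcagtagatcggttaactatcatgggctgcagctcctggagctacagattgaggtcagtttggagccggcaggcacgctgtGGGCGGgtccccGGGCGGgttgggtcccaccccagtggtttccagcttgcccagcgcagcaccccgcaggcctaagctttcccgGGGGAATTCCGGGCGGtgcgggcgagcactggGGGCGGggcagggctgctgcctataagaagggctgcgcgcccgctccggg
The 241 bases before Itgb7 held none of the 8 motifs, after 9 bases inside an annotated exon had been left out. The 250 bases before Itga5 held 2 GC boxes, and those before Sdc4 held 4 GC boxes and 1 NF-kB consensus, which lies next to a GC box without overlap. Of 32851 windows of this length before all genes, 32.7% held a GC box and 7.25% the NF-kB consensus. The Sdc4 window is upstream of the start that RefSeq gives and lies within the first intron of a longer transcript model. A match describes the letters of a window and nothing about binding.

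The libraries kept 12984, 6414 and 15179 cells with more than 500 genes and less than 5% mitochondrial UMIs, and 94816520, 78108414 and 99328725 UMIs (unique molecular identifiers, 1 per captured transcript molecule). Cells were assigned by UMIs of 8 gate genes, which were not tested. The progenitor gate (Dpp4 and Pi16 together at least 3, Icam1 and Fabp4 together at most 1) held 7390, 3146 and 9257 cells, and the preadipocyte gate (Icam1 and Fabp4 together at least 4, Dpp4 at most 1) held 2108, 1374 and 1856. The regulatory gate (Clec11a and Fmo2 at least 1 each, Fabp4 and Dpp4 at most 1 each) held 268, 381 and 402 cells, and the Cited1 gate (Cited1 at least 2, Fabp4 and Lpl together at least 2) held 212, 64 and 73. Between 37 and 59 cell barcodes were shared by each pair of libraries. Between 22.6% and 23.7% of kept cells of a mouse were in no gate. Levels below are in CPM, UMI counts scaled to a total of 1000000 UMIs for the gate's cells in a mouse. Because UMIs are counted at the 3′ end and capture differs between genes, levels are compared between gates for 1 gene, not between genes.

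Marker lists went with the names of the progenitor, preadipocyte and regulatory gates in every mouse. The lists were chosen with earlier results of these data known, so this match is no independent check of the names. The summed level of 6 progenitor markers was 2754 to 3782 CPM in its own gate and at most 979.7 elsewhere, in the Cited1 gate of mouse 2. That of 6 preadipocyte markers was 4592 to 6132 against at most 3637, and that of 5 regulatory markers was 2330 to 2995 against at most 1076. The 4 Cited1 markers summed to 457, 30.8 and 1291 CPM in the Cited1 gate of mice 1, 2 and 3, so mouse 2 went against the label, and its Car3 level of 13.8 CPM lay below the 29.3 of its own preadipocyte gate. Results on the Cited1 gate are therefore also given without mouse 2. Of 3 Cited1 markers tested against preadipocytes, 2 were higher and 1 was lower. Without mouse 2, Car3 (2.14 on the log2 scale) and Ptn (6.00) were higher and Plin4 (-1.04) was lower, so Plin4 went against the label. Markers of sorted-out and other cells were low in most gates: the summed level of 11 leukocyte markers was at most 24.8 CPM, that of 5 platelet markers at most 1.06 and that of 5 Schwann cell markers at most 8.88. The exceptions were 8 endothelial markers in the preadipocyte gate (39.8, 69.3 and 5.13 CPM), 7 mural markers in the preadipocyte and regulatory gates (50.8 to 101 CPM), and, in mouse 3 alone, 5 epithelial markers (382 CPM in the Cited1 gate, 72.3 in the regulatory gate) and 5 mesothelial markers (224 and 32.3 CPM). These lists are set beside the members they moved with below.

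Of the 35 members, 18 reached a mean of 10 CPM in at least 1 gate, and 22 passed the filter on low counts and were tested. The 13 not tested were Itga3, Itga4, Itga10, Itgad, Itgae, Itgal, Itgam, Itgax, Itgb1bp2, Itgb2, Itgb2l, Itgb8 and Sdc3, whose highest level in any sum was 4.80 CPM (Itgb8, Cited1 gate, mouse 1). Over all kept cells they had 0 to 235 UMIs, and Itgb2l had none. Among them were the subunits that leukocytes carry: Itgam, Itgax and Itgad had 3, 1 and 3 UMIs, Itgal 49 and Itgb2, the chain shared by these, 34. Itga4, the alpha chain of the VCAM1 receptor, had 54 UMIs, and Itgae, the alpha chain of the E-cadherin receptor, had 40. Sdc3, the syndecan of neural tissue, had 235.

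The first comparison asks how adhesion receptors differ between DPP4+ progenitors and ICAM1+ preadipocytes. Members differed in both directions, while the difference in Itgb1, the common beta 1 chain, was not called. Progenitors had more transcript of Itgb7, Itga2, Itgb6, Itga11, Itga9, Itgav and Itgb3, and preadipocytes had more of Itga7, Itga6, Itga8, Sdc1, Itga2b and Itga1. Removal of cells with UMIs of other-cell markers, given below, ended the call of Itga6 and brought the difference of Itga1 under 2-fold. The largest fitted differences were 48.1-fold for Itgb7, toward progenitors, and 26.4-fold for Itga7, toward preadipocytes.

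In this comparison 16 of 22 members were called at a false discovery rate of 0.05, 8 higher and 8 lower in preadipocytes, where 50.8% of 12225 genes were called (25% higher, 25.8% lower). With a change of at least 2-fold and the same sign in each mouse, 13 members were called, 6 higher and 7 lower, against 17.5% of all genes (8.74% higher, 8.76% lower). The median fitted difference was 0.15 on the log2 scale over the members tested and 0.02 over all genes. Adjusted p-values here and below are from edgeR's quasi-likelihood test on the sums per mouse and gate, with mouse as a block and Benjamini-Hochberg adjustment over all genes tested. The gates are made from the same cells and the comparisons share sums, so the values of different comparisons are given side by side and not correlated.

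Among the collagen-binding alpha chains, which pair with beta 1, members moved in opposite directions. Itga2 stood at 20.4, 13.1 and 20.8 CPM in the progenitors of mice 1, 2 and 3 and at 1.55, 1.28 and 1.81 CPM in preadipocytes. Itga11 stood at 65.8, 54.2 and 80.8 CPM in progenitors and at 24.5, 21.8 and 35.4 CPM in preadipocytes. Itga1 had the reverse order, with 7.32, 6.67 and 8.23 CPM in progenitors and 17.7, 17.8 and 18.7 CPM in preadipocytes. For all 3 genes the mice of the gates did not overlap. With the cells that had a UMI of any of 27 other-cell markers left out, Itga1 in preadipocytes was at 11.9, 12.4 and 17.4 CPM, lowered most in mice 1 and 2, in which the endothelial markers were highest, and its difference was 0.91 (adjusted p = 1.7e-05), under 2-fold. The log2 fold change of preadipocytes over progenitors was -3.56 ± 0.17 (SE, adjusted p = 6.3e-09) for Itga2, -1.34 ± 0.14 (adjusted p = 7.0e-06) for Itga11 and 1.26 ± 0.11 (adjusted p = 1.6e-06) for Itga1. The fourth collagen receptor chain, Itga10, was not tested, with means of 0.706 and 0.993 CPM.

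Laminin-binding chains were near the floor of detection in progenitors. Itga7, known from muscle and located at chr10:128933818-128958282 (GRCm38, plus strand), was at 0.372, 0.526 and 0.455 CPM in progenitors (20, 20 and 28 UMIs) and at 11.1, 15.0 and 11.1 CPM in preadipocytes. The ratio within a mouse was 29.8, 28.5 and 24.4, and the log2 fold change was 4.72 ± 0.17 (adjusted p = 9.7e-10). Mural markers were also higher in preadipocytes (83.6, 63.6 and 91.7 CPM summed, against 15.9, 16.6 and 26.1). With every cell left out that had a UMI of any of 27 other-cell markers, Itga7 was at 10.8, 14.6 and 10.9 CPM in preadipocytes, and the difference was 4.80. Of the mural markers, those 27 include Rgs5, Myh11 and Higd1b alone, so mural cells without a UMI of these could remain. Their part in the Itga7 level was not tested. Itga6, the laminin receptor chain of epithelium and endothelium, behaved otherwise. It stood at 2.80, 3.29 and 0.754 CPM in preadipocytes against 0.0931, 0.0526 and 0.357 in progenitors, a log2 fold change of 4.09 ± 0.89 (adjusted p = 0.0021), with the order of the mice following their endothelial markers. Without the marked cells its preadipocyte levels were 0.129, 0.0613 and 0.324 CPM, and with cells holding UMIs of 6 leukocyte, endothelial, mural or platelet markers left out the difference was 0.50 (adjusted p = 0.66). Itgb4, the partner of Itga6 in hemidesmosomes, was under 0.5 CPM in all mice of both gates and not called.

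Receptors for fibronectin, vitronectin and related ligands mostly had more transcript in progenitors. Itgav, the alpha chain shared by the TGF-beta-releasing integrins, was at 134, 111 and 142 CPM in progenitors and at 62.4, 54.0 and 69.7 CPM in preadipocytes. Its partner Itgb3 was at 33.2, 24.5 and 37.4 CPM against 18.4, 10.97 and 18.2, and its partner Itgb5 at 122, 124 and 126 CPM against 84.1, 95.2 and 81.9. A further partner, Itgb6, was low everywhere, at 2.72, 1.87 and 3.00 CPM in progenitors and 1, 0 and 4 UMIs in preadipocytes. All 4 were lower in preadipocytes in every mouse, without overlap of the gates. The log2 fold changes were -1.08 ± 0.11 (adjusted p = 3.1e-06) for Itgav, -1.04 ± 0.12 (adjusted p = 9.9e-06) for Itgb3, -0.54 ± 0.09 (adjusted p = 0.0002) for Itgb5 and -4.54 ± 0.63 (adjusted p = 6.6e-05) for Itgb6. Itga9, the tenascin-C and osteopontin receptor chain, followed them, with 39.2, 33.0 and 40.1 CPM in progenitors and 14.8, 14.8 and 15.4 in preadipocytes (-1.35 ± 0.16, adjusted p = 1.7e-05).

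Other chains of this ligand group had more transcript in preadipocytes. Itga5, the alpha chain of the classical fibronectin receptor, was at 38.6, 38.7 and 57.8 CPM in progenitors and at 51.6, 69.2 and 102 CPM in preadipocytes. Levels of Itga5 overlapped between the gates across mice, but the preadipocyte level was higher within every mouse (0.67 ± 0.13, adjusted p = 0.001). Itga8, the nephronectin receptor chain, was at 1.25, 0.552 and 0.763 CPM in progenitors and at 10.0, 4.68 and 10.6 in preadipocytes (3.27 ± 0.21, adjusted p = 8.1e-08). Itga2b, the fibrinogen receptor chain of platelets, located at chr11:102453297-102470122 (minus strand), was at 13.0, 13.1 and 9.89 CPM in progenitors and at 48.2, 25.6 and 21.2 CPM in preadipocytes (1.29 ± 0.27, adjusted p = 0.0016). The 5 platelet markers summed to at most 1.06 CPM in a mouse of the 4 gates. Among them Pf4, Gp9 and Ppbp were at or under 0.301 CPM in every mouse.

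Itgb7 marked the progenitor gate. The gene lies on the minus strand of chromosome 15 at chr15:102215995-102231944 (GRCm38) and encodes the beta chain that lymphocytes pair with alpha 4 or alpha E for gut homing. It was at 42.4, 56.3 and 51.8 CPM in progenitors (2275, 2141 and 3192 UMIs) and at 0.954, 0.223 and 2.26 CPM in preadipocytes (16, 4 and 30 UMIs), a log2 fold change of -5.59 ± 0.29 (adjusted p = 1.4e-08). Neither known partner went with it: in progenitors Itga4 averaged 0.0345 CPM and Itgae 0.118 CPM, and Ptprc, which encodes CD45, was at or under 0.0788 CPM. With the cells holding other-cell UMIs left out, Itgb7 stood at 42.9, 57.2 and 52.1 CPM.

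Itgb1, the beta chain that most of the alpha chains above share, differed more between mice than between gates. It was at 489.8, 213 and 424 CPM in progenitors and at 528, 228 and 467 CPM in preadipocytes, and mouse 2 was lowest in each of the 4 gates. The ratio of preadipocytes to progenitors was 1.08, 1.07 and 1.10, and the difference was not called (0.09, 95% interval -0.07 to 0.25, adjusted p = 0.34). By DESeq2 the same difference was called, with an adjusted p of 0.048.

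Of the syndecans, Sdc1 and Sdc4 were higher in preadipocytes and Sdc2 was not called. Sdc1, the epithelial and plasma cell syndecan, located at chr12:8771323-8793715 (plus strand), was at 3.20, 1.73 and 2.03 CPM in progenitors and at 42.2, 15.9 and 13.0 CPM in preadipocytes (3.25 ± 0.28, adjusted p = 1.1e-06). Sdc4, the syndecan of focal adhesions, was at 87.3, 74.6 and 91.8 CPM in progenitors and at 131, 121 and 197 CPM in preadipocytes (0.75 ± 0.17, adjusted p = 0.0028). Sdc2, the mesenchymal syndecan, was at 228, 202 and 199 CPM against 238, 243 and 231 (0.15, 95% interval -0.15 to 0.45, adjusted p = 0.39). Neither the gates of Sdc1 nor those of Sdc4 overlapped, and the spread of Sdc1 among the preadipocytes was wide, since mouse 1 stood well above the others.

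The 3 tested genes that share the symbol but encode no subunit did not pass the threshold here. Itgbl1, a secreted protein with integrin-like repeats, was at 53.6, 43.3 and 59.3 CPM in progenitors and at 66.6, 77.4 and 89.7 CPM in preadipocytes (0.55, adjusted p = 0.055). The gates of Itgbl1 did not overlap, and it passed the threshold under 10 of 16 alternatives. Itgb1bp1, which binds the tail of beta 1, was at 42.4, 48.01 and 40.8 CPM against 47.7, 55.2 and 45.5, and Itgb3bp, a centromere protein, was at 11.2, 13.7 and 10.8 CPM against 13.9, 14.6 and 11.9. Their differences were 0.15 (95% interval 0.01 to 0.29, adjusted p = 0.078) and 0.16 (-0.06 to 0.37, adjusted p = 0.21). Among the calls named above, those of Itga5 and Sdc4 were lost without the mouse block (adjusted p = 0.12 and 0.13) and that of Itga6 as given.

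**Figure D1:**
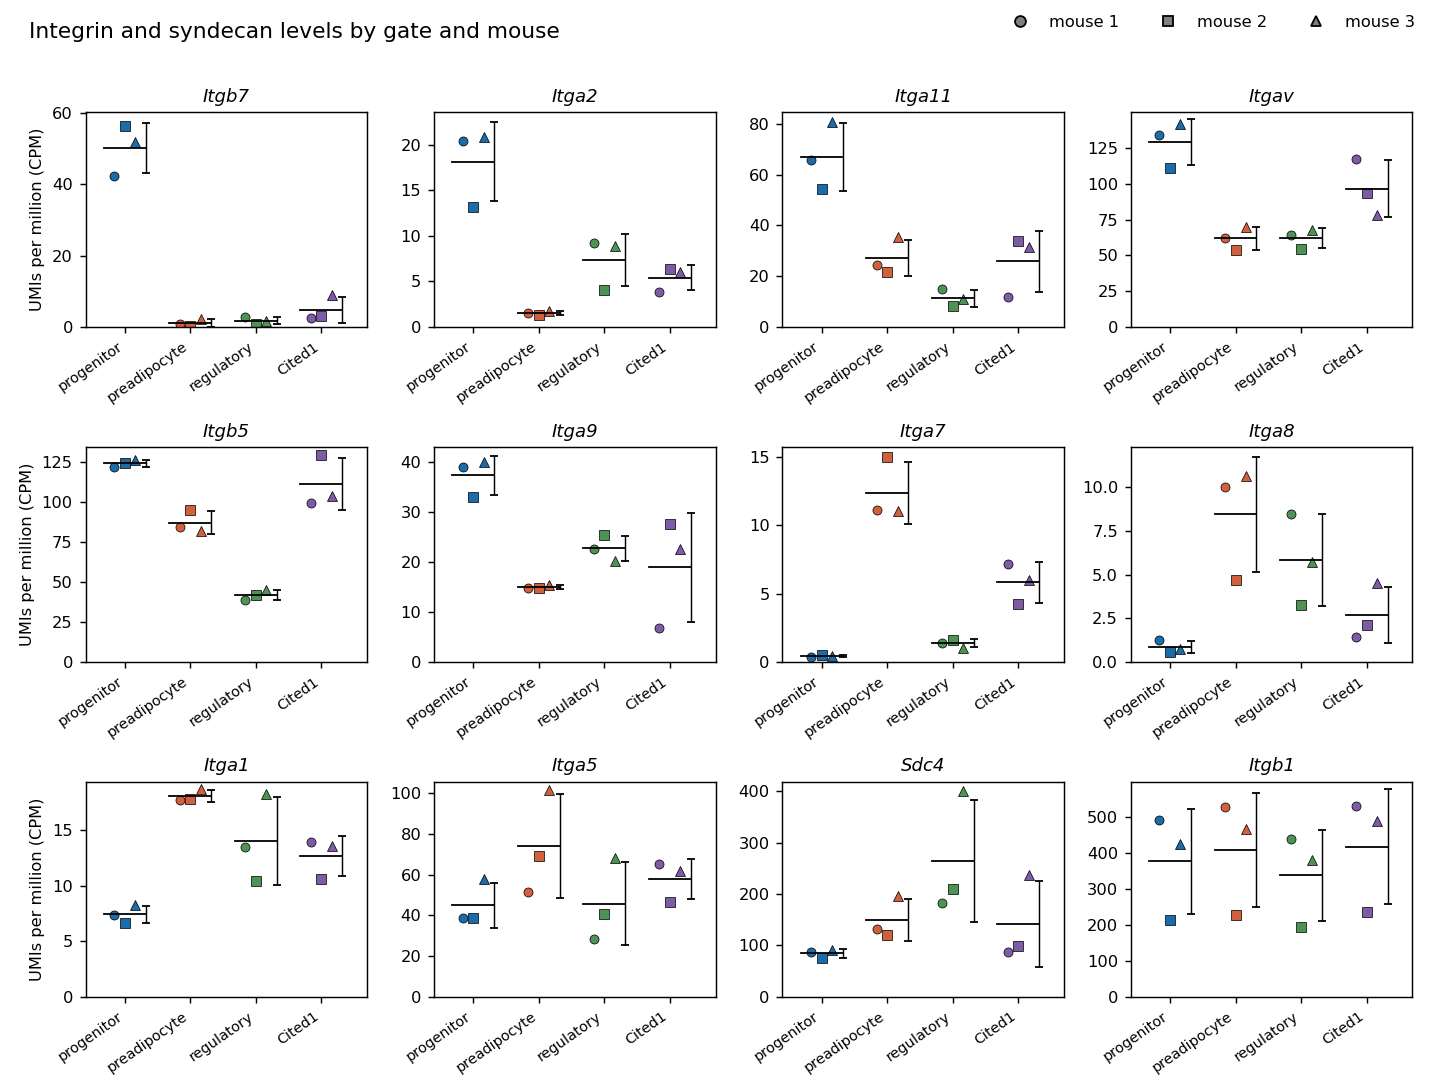
Level of 12 members in CPM (vertical axes, linear, from 0) in the 4 gates (horizontal axis), with 1 point per mouse, a line at the mean and a bar for the SD (n = 3). Itgb7 stands at 42.4 to 56.3 in progenitors and under 10 in the other gates, Itga7 is highest in preadipocytes in each mouse, and Itgb1 separates mouse 2 from the others in every gate.

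The other genes of the adhesion pathway were taken from 3 lists. Of 32 integrin ligands tested (44 listed), 13 were higher and 11 lower in preadipocytes, with a median log2 fold change of 0.10 against 0.02 over all genes. The ligands with the largest changes were Thbs1, a thrombospondin (4.29 ± 0.21), and the type IV collagen chains Col4a2 (3.89 ± 0.13) and Col4a1 (3.63 ± 0.13), all higher, and Fn1, fibronectin (-3.17 ± 0.21), which was lower. Fn1 fell from 5260, 5048 and 5780.0 CPM in progenitors to 722, 436 and 658 CPM in preadipocytes. Of 36 tested genes that couple integrins to actin, 8 were higher and 18 lower (median -0.13), among them Actn1, an actin cross-linker of adhesions (4.09 ± 0.20), and Tns3, a tensin (2.84 ± 0.16), against Kank1 (-3.01 ± 0.16). Of 27 tested genes of heparan sulphate assembly and other heparan sulphate proteoglycans, 7 were higher and 12 lower (median -0.23), with the glypican Gpc1 (4.33 ± 0.36) higher and the glypican Gpc3 (-2.63 ± 0.34), the sulphotransferase Hs3st1 (-3.08 ± 0.21) and the heparanase Hpse (-2.30 ± 0.15) lower. All 11 genes named passed the threshold and changed the same way in each mouse.

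The second comparison sets the regulatory gate, cells known for restraining the adipogenesis of their neighbours, against progenitors and preadipocytes. Regulatory cells shared with preadipocytes low Itgb7, Itgav and Itgb3 and raised Itga8 and Itga1, had the lowest mean of the gates for Itgb5 and Itga11, and had the highest mean for Sdc4 and Itgbl1. Their Itga7 was far below that of preadipocytes, and their Itga2 lay between the other gates. Their cells were shallower, with median UMIs of 4945, 9991 and 4575 against 7994, 12961.5 and 7257.5 in preadipocytes. Against progenitors, 16 of 22 members were called, 8 in each direction, where 38.5% of all genes were called (18.7% higher, 19.8% lower), and the second rule called 12, 5 higher and 7 lower, against 15.1% (8.07% and 7.08%). The median difference was 0.17 over the members and -0.01 over all genes. Against preadipocytes, 9 of 22 were called, 4 higher and 5 lower, where 20.4% of all genes were called (10.9% higher, 9.53% lower), and the second rule called 5, 1 higher and 4 lower, against 8.62% (5.07% and 3.55%). The median there was -0.03 over the members and -0.01 over all genes.

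Of the collagen receptor chains, Itga11 and Itga2 were called against both other gates and Itga1 against progenitors alone. Itga11 was at 14.9, 8.19 and 10.9 CPM in regulatory cells, lower than in progenitors (-2.61 ± 0.24, adjusted p = 4.4e-06) and lower than in preadipocytes (-1.27 ± 0.27, adjusted p = 0.0055). Itga2 was at 9.20, 4.10 and 8.84 CPM, between the other gates and without overlap with either: lower than in progenitors (-1.34 ± 0.20, adjusted p = 0.00024) and higher than in preadipocytes (2.22 ± 0.28, adjusted p = 0.00014). Itga1 was at 13.4, 10.4 and 18.2 CPM, higher than in progenitors (0.91 ± 0.17, adjusted p = 0.0009) and not called against preadipocytes (-0.35, 95% interval -0.70 to -0.01, adjusted p = 0.15). Without mouse 3 the difference of Itga11 from preadipocytes was -1.09 (adjusted p = 0.15), and with cells thinned to 3000 UMIs before gating that of Itga2 was 1.38 (adjusted p = 0.15).

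Of the laminin receptor chains, Itga7 was at 1.41, 1.64 and 1.04 CPM in regulatory cells (2, 6 and 2 UMIs), far below the preadipocyte levels (-3.11 ± 0.29, adjusted p = 1.5e-05). It was above the progenitor levels by 1.61 ± 0.45 (adjusted p = 0.015), a call on few UMIs. That call was lost under 6 of 16 alternatives (adjusted p up to 0.38), among them each mouse left out (0.058 to 0.16). Itga6 and Itgb4 were high in mouse 3 alone. Itga6 was at 0.707, 1.09 and 7.28 CPM and Itgb4 at 0, 1.64 and 9.36 CPM in regulatory cells, beside Epcam and Krt8 at 35.4 and 34.3 CPM in mouse 3 and at 0 in mice 1 and 2. The fits called both against progenitors (4.01 ± 1.20, adjusted p = 0.019 for Itga6, and 3.14 ± 0.84, adjusted p = 0.011 for Itgb4) and Itgb4 against preadipocytes (4.62 ± 1.04, adjusted p = 0.0074). With the cells holding other-cell UMIs left out, 29 cells of the 402 in mouse 3 among them, both genes were at 0 CPM in mouse 3. Without mouse 3, Itgb4 no longer passed the filter on low counts.

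Among the fibronectin and vitronectin receptors, Itgb5 stood apart from its partner Itgav and from Itgb3. Itgb5 was at 38.9, 41.5 and 45.3 CPM in regulatory cells, below every mouse of the other 3 gates, with differences of -1.54 ± 0.11 from progenitors (adjusted p = 4.6e-07) and -1.0 ± 0.11 from preadipocytes (adjusted p = 5.0e-05). Itgav was at 64.4, 54.6 and 67.6 CPM and Itgb3 at 16.3, 10.1 and 14.0 CPM, both lower than in progenitors (-1.01 ± 0.12 and -1.20 ± 0.18). Neither was called against preadipocytes, with 95% intervals of -0.20 to 0.35 for Itgav and -0.60 to 0.28 for Itgb3. Itga5 was at 28.3, 40.7 and 68.1 CPM, not called against progenitors (0.05, interval -0.31 to 0.42) and lower than in preadipocytes (-0.61 ± 0.17, adjusted p = 0.022). The latter call was lost under 3 of 16 alternatives (adjusted p up to 0.32), among them without mouse 2 (0.16) or mouse 3 (0.081). Itga8 was at 8.49, 3.28 and 5.72 CPM, higher than in progenitors (2.78 ± 0.35, adjusted p = 4.9e-05). Itga9 was at 22.6, 25.4 and 20.3 CPM, between the progenitors and the preadipocytes without overlap, and lower than in progenitors (-0.65 ± 0.22, adjusted p = 0.034), a call lost under 5 of 16 alternatives (adjusted p up to 0.31). Against preadipocytes Itga9 was not called (0.70), but it passed the threshold under 7 of 16 alternatives. Itga2b, at 14.9, 14.8 and 14.0 CPM, was called in neither comparison. Itgb7 was at 2.83, 0.819 and 1.56 CPM (4, 3 and 3 UMIs) and Itgb6 at 0, 0 and 1 UMI, both lower than in progenitors (-5.11 ± 0.48, adjusted p = 4.6e-06, and -3.98 ± 1.16, adjusted p = 0.017). The call of Itgb6 was lost under 2 of the 10 alternatives that could test it (adjusted p up to 0.088).

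Itgb1, at 438, 195 and 379.7 CPM, again differed more between mice, each of them 1 library, than between gates, and was called in neither comparison. Against preadipocytes its difference was -0.20 (95% interval -0.36 to -0.04, adjusted p = 0.084), with the same sign in 3 of 3 mice, and DESeq2 called it (adjusted p = 0.0012). Sdc4 was higher in regulatory cells, at 182, 211 and 401 CPM, which exceeded progenitors by 1.60 ± 0.18 (adjusted p = 2.0e-05) and preadipocytes by 0.85 ± 0.18 (adjusted p = 0.0048). Within each mouse the regulatory gate had the highest Sdc4 level of the 4 gates. Across mice the levels of regulatory cells and preadipocytes overlapped, and without the mouse block the call against preadipocytes was lost (0.18). Sdc1 was at 4.24, 6.28 and 6.76 CPM, lower than in preadipocytes (-1.66 ± 0.48, adjusted p = 0.027) and not called against progenitors (1.59, adjusted p = 0.063). The latter difference passed the threshold under 7 of 16 alternatives. The call against preadipocytes was lost under 3 of 16 alternatives (adjusted p up to 0.13), among them without mouse 1 (0.086) or mouse 3 (0.10). Sdc2, at 225, 232 and 235 CPM, was called in neither comparison.

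Itgbl1 was highest in regulatory cells, at 132, 89.6 and 156 CPM, and exceeded progenitors by 1.27 ± 0.25 (adjusted p = 0.0014). Against preadipocytes its difference was 0.72 (95% interval 0.18 to 1.25, adjusted p = 0.06), which passed the threshold under 6 of 16 alternatives. Itgb3bp, at 19.1, 19.7 and 14.0 CPM, was called against both (0.59 ± 0.13, adjusted p = 0.0035, and 0.44 ± 0.13, adjusted p = 0.038). The first call was lost under 1 of 16 alternatives (adjusted p = 0.18). The second was lost under 9 of 16 (adjusted p up to 0.39), among them each mouse left out (0.12 to 0.22). Itgb1bp1, at 43.9, 52.7 and 45.8 CPM, was called in neither. The calls of Itgb7, Itga2, Itga11, Itgav, Itgb3 and Itga8 between progenitors and both the preadipocyte and the regulatory gates were ended by none of the 16 alternatives run in each comparison.

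**Figure D2:**
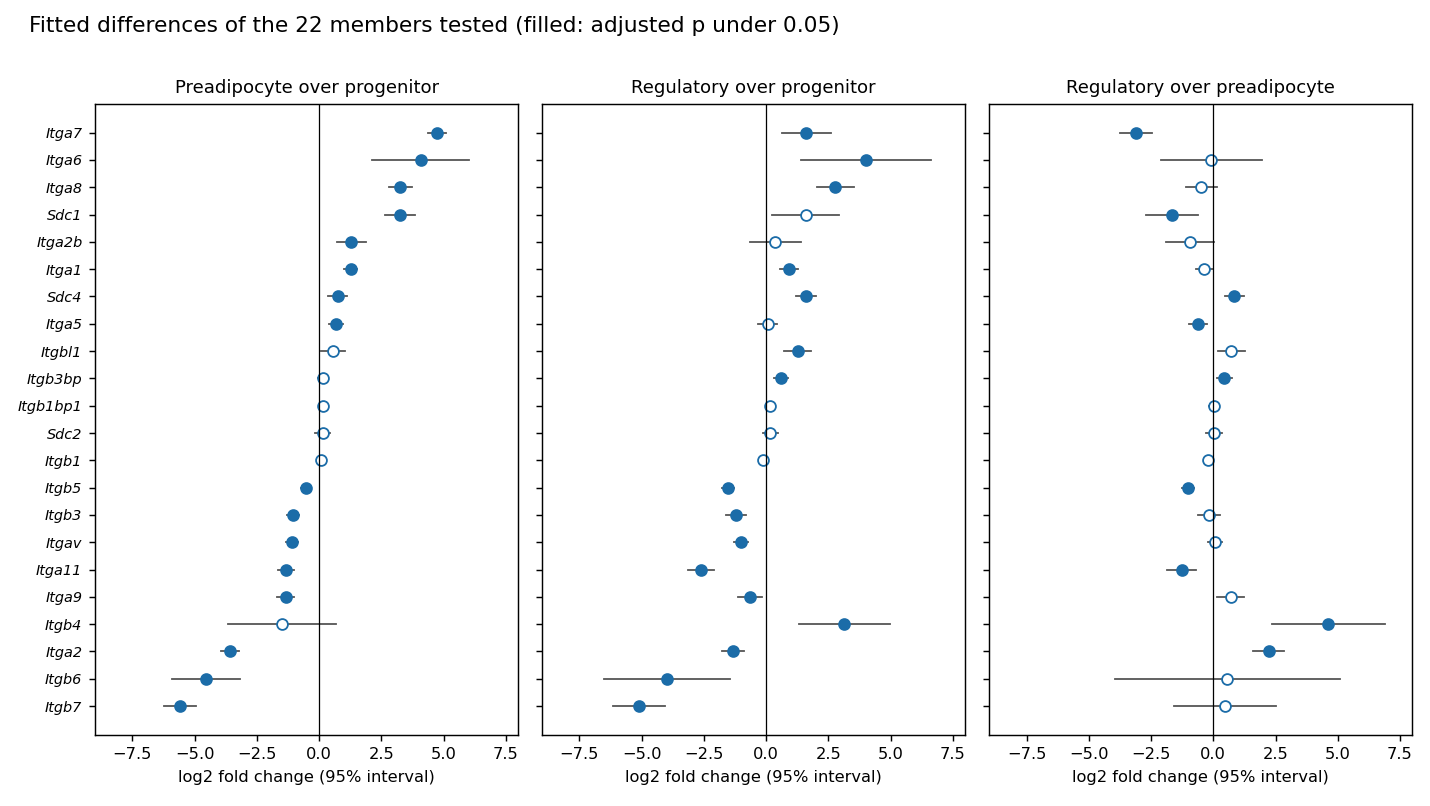
Fitted log2 fold change (horizontal axis, bars: 95% interval) of the 22 members tested (rows) for preadipocyte over progenitor, regulatory over progenitor and regulatory over preadipocyte; filled points have an adjusted p under 0.05. Itga7 lies at 4.72 in the first panel and at -3.11 in the third, Itgb7 at -5.59 and -5.11 in the first 2, and Itgb1 near 0 throughout.

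Of the 32 ligands tested, 13 were higher and 14 lower in regulatory cells than in progenitors (median 0.28), and 7 were higher and 16 lower than in preadipocytes (median -0.40). Vtn, vitronectin, was at 187, 198 and 129 CPM in regulatory cells and at 12.8, 17.1 and 11.3 CPM in progenitors (3.68 ± 0.26), and Col4a2 was higher too (2.44 ± 0.13). Thbs2 was at 19.1, 21.0 and 15.6 CPM, lower than in progenitors (-3.57 ± 0.24) and than in preadipocytes (-3.06 ± 0.24), and Postn, periostin, was lower in the same 2 comparisons (-2.92 ± 0.32 and -2.13 ± 0.31). Against preadipocytes the laminin chain Lamb1 was lower (-2.93 ± 0.18) and Tgfbi, an adhesion protein induced by TGF-beta, was higher (2.02 ± 0.31). Of the 36 adhesion complex genes, 7 were higher and 16 lower than in progenitors (median -0.23), with Tns3 (3.65 ± 0.22), Cav1, the caveolar coat protein (3.11 ± 0.17), and Actn1 (3.08 ± 0.34) higher. Against preadipocytes 9 were higher and 7 lower (median 0.08), with Ptk2b, a focal adhesion kinase (1.37 ± 0.24), and Kank1 (0.94 ± 0.29) higher and Actn1 (-1.01 ± 0.26) and Bcar1, an adhesion scaffold (-0.99 ± 0.22), lower. Of the 27 heparan sulphate genes, 2 were higher and 9 lower than in progenitors (median -0.19), among the latter the sulphatase Sulf1 (-2.01 ± 0.15), the epimerase Glce (-1.86 ± 0.21), Hpse (-1.45 ± 0.21) and the polymerase Ext1 (-1.27 ± 0.10). In the same list 7 were higher and 3 lower than in preadipocytes (median 0.14), where Hs3st1 (2.66 ± 0.27) and Gpc3 (2.12 ± 0.35) were higher and the perlecan gene Hspg2 (-1.44 ± 0.09) and Gpc1 (-2.38 ± 0.62) lower.

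The third comparison sets cells with Cited1 and UMIs of Fabp4 or Lpl against the preadipocyte gate. Sdc1 and Itga2b were higher in the Cited1 gate in every mouse, by 4.29-fold and 4.26-fold as fitted, and Itga2 and Itgav were higher as well. Itga8, Itga7, Itgbl1 and Sdc2 were lower. Of 6 progenitor markers, 5 were also called higher in the Cited1 gate than in preadipocytes (median 1.70), and 3 without mouse 2. Itga2 and Itgav were higher in progenitors too, and the part of progenitor-like cells in their differences was not tested. The gate is small and rests on 1 library more than the others do: it held 212, 64 and 73 cells, of which 170, 23 and 34 also passed the preadipocyte gate and 9, 24 and 16 the progenitor gate, and all were counted with Cited1 alone.

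Of 22 members, 8 were called, 4 in each direction, where 7.39% of all genes were called (3.42% higher, 3.97% lower). The second rule called 6, 3 in each direction, against 3.23% of all genes (1.92% higher, 1.31% lower). The median difference was 0.05 over the members and 0.00 over all genes. Without mouse 1, 2 or 3 the count of members called was 3, 5 or 1, where 4.65%, 6.76% or 1.16% of all genes were called, and the 1 without mouse 3 was Itgav (0.75, adjusted p = 0.034). Without mouse 2, whose Cited1 gate lacked the markers, the members called were Itga2b, Itga8, Itgbl1, Sdc1 and Sdc2.

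Sdc1 was at 230.0, 27.6 and 82.8 CPM in the Cited1 gate and at 42.2, 15.9 and 13.0 CPM in the preadipocyte gate, with ratios of 5.45, 1.73 and 6.35 within the mice (2.102 ± 0.29, adjusted p = 0.0013). Itga2b was at 279, 43.5 and 116 CPM against 48.2, 25.6 and 21.2, with ratios of 5.78, 1.70 and 5.47 (2.09 ± 0.32, adjusted p = 0.0024). For both genes mouse 2, in which Car3 was at 13.8 CPM against 231 and 238 in mice 1 and 3, had the lowest level and the lowest ratio, and mouse 1 had the highest level, whereas the summed Cited1 markers were highest in mouse 3. In mouse 3 these markers also summed to 119 CPM in the regulatory gate, against 4.24 and 2.19 in mice 1 and 2. Epithelial markers were high in both gates of mouse 3, and their part in the sum was not tested. Without mouse 2 the differences were 2.41 for each gene (adjusted p = 0.00073 and 0.00035). Without mouse 3 neither was called (1.98, adjusted p = 0.068, and 1.99, adjusted p = 0.10), and with cells passing 2 gates left out the difference of Sdc1 was 1.56 (adjusted p = 0.063). With cells holding other-cell UMIs left out, Sdc1 was at 227, 30.1 and 96.7 CPM and Itga2b at 269.9, 46.3 and 141 CPM in the Cited1 gate.

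The other called members had few UMIs or smaller changes. Itga2 was at 3.84, 6.37 and 6.02 CPM (8, 6 and 4 UMIs), higher than in preadipocytes (1.50 ± 0.38, adjusted p = 0.035), and Itgav was at 118, 93.4 and 78.2 CPM (0.55 ± 0.13, adjusted p = 0.025). Itga8 was at 1.44, 2.12 and 4.51 CPM (3, 2 and 3 UMIs; -2.17 ± 0.44, adjusted p = 0.011) and Itga7 at 7.20, 4.25 and 6.02 CPM (15, 4 and 4 UMIs; -1.11 ± 0.25, adjusted p = 0.02). Itgbl1 was at 13.9, 62.6 and 42.1 CPM (-1.32 ± 0.35, adjusted p = 0.04) and Sdc2 at 123, 212 and 155 CPM (-0.71 ± 0.15, adjusted p = 0.015), each lowest in mouse 1. Every one of these 6 calls was lost when some 1 mouse was left out, and those of Itga2, Itga7 and Itgav also without mouse 2 (adjusted p = 0.12, 0.18 and 0.11). Without mouse 2 the differences of Itga8, Itgbl1 and Sdc2 were -2.41 (adjusted p = 0.03), -1.93 (0.0023) and -0.95 (0.0027). With cells passing 2 gates left out, Itga2 was at a difference of 2.08 (adjusted p = 0.079). Itgav reversed to -0.07 (adjusted p = 0.95) when cells were brought to 3000 UMIs before gating, which left 78, 4 and 30 cells in the gate.

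The remaining members were not called in the Cited1 gate. Itga6 was at 0.480, 1.06 and 19.6 CPM, Itgb4 at 0.480, 0 and 4.51 and Itgb6 at 0, 0 and 4.51, so that all 3 chains were high in mouse 3 alone. There Epcam, Krt8 and Krt19 were at 209, 153 and 217 CPM, in 9 of 73 cells with an epithelial UMI, against at most 6.37 CPM of any of the 3 in mice 1 and 2. Without the cells holding other-cell UMIs, Itga6 and Itgb6 were at 0 CPM in mouse 3 and Itgb4 at 1.86 CPM. Itgb7 was at 2.40, 3.18 and 9.03 CPM, above preadipocytes in each mouse but on 5, 3 and 6 UMIs (1.79, 95% interval -0.17 to 3.74, adjusted p = 0.29). Itga1 was at 13.9, 10.6 and 13.5 CPM, Itga11 at 12.01, 34.0 and 31.6, Itga9 at 6.72, 27.6 and 22.6, and Itgb3 at 36.5, 13.8 and 18.1. For Itga11, Itga9 and Itgb3 mouse 1 stood apart from mice 2 and 3 and the Cited1 gate overlapped the preadipocyte gate. Itgb1 (529, 235 and 488 CPM), Itgb5 (99.4, 129.5 and 104 CPM), Itga5 (65.3, 46.7 and 61.7 CPM) and Sdc4 (86.9, 99.8 and 238 CPM) had 95% intervals of -0.28 to 0.05, -0.03 to 0.43, -0.75 to 0.05 and -0.77 to 0.08. The fitted difference of Itgb1 was -0.11, although its CPM was slightly higher in the Cited1 gate in 3 of 3 mice, so its direction is not settled. Itgb3bp (19.2, 18.0 and 16.6 CPM) and Itgb1bp1 (49.0, 45.6 and 40.6 CPM) had intervals of -0.06 to 0.64 and -0.45 to -0.02, neither called. Sdc4 also stood apart in mouse 3: without the cells holding other-cell UMIs it was at 85.5, 92.7 and 96.7 CPM in the Cited1 gate, and its difference from preadipocytes was then -0.81 (adjusted p = 0.01). No member of this paragraph was called without mouse 2, where Itga11 and Itga9 had differences of -0.85 (adjusted p = 0.1) and -0.61 (adjusted p = 0.36).

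**Figure D3:**
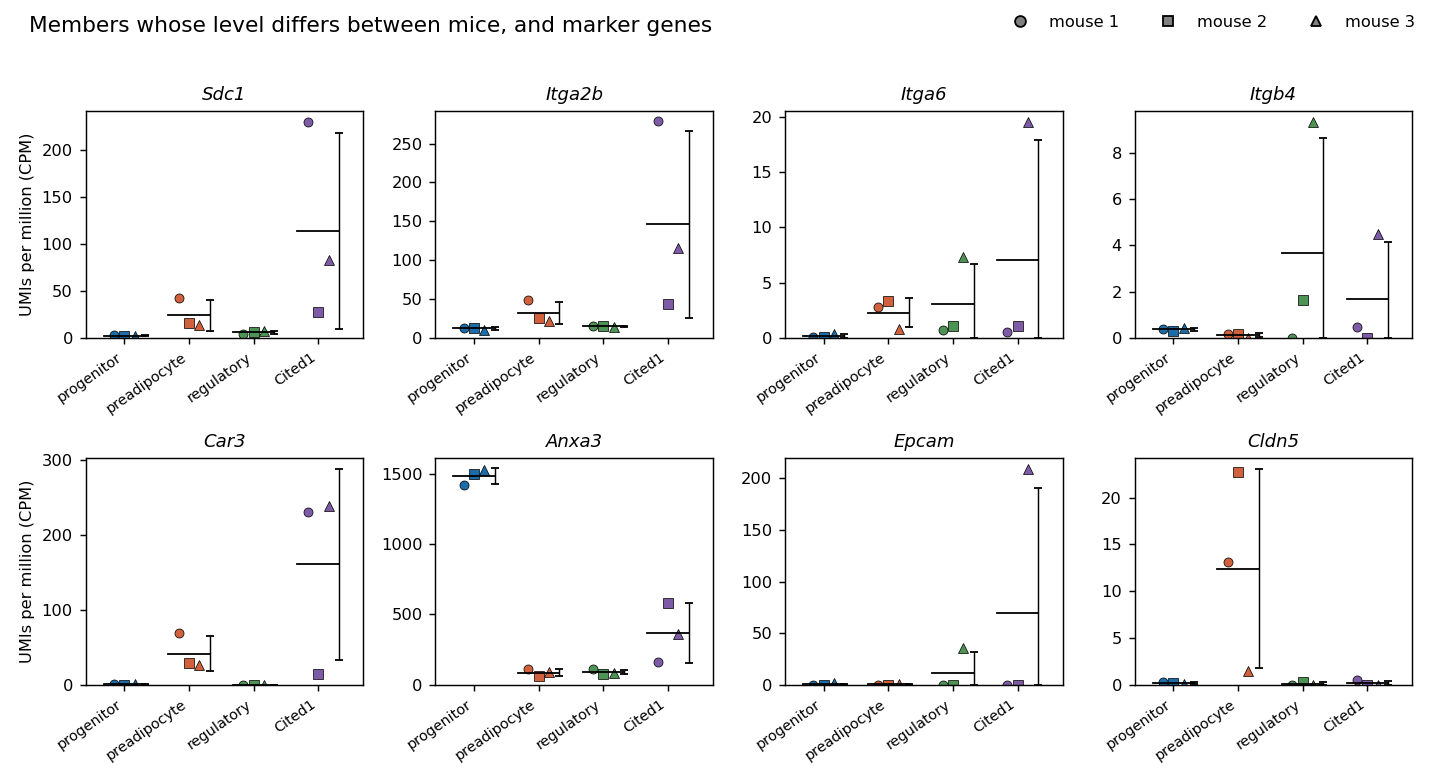
Level in CPM (vertical axes, linear, from 0) of 4 members (upper row) and 4 marker genes (lower row) in the 4 gates, with 1 point per mouse, a line at the mean and a bar for the SD (n = 3), cut off at 0. In the Cited1 gate Sdc1 and Itga2b are lowest in mouse 2, as is Car3, while Itga6 and Itgb4 are high in mouse 3 alone, as is Epcam; Cldn5, an endothelial gene, is at 13.1, 22.7 and 1.43 in preadipocytes.

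Of the 32 ligands tested, 2 were higher and 15 lower in the Cited1 gate than in preadipocytes (median -0.40), the higher ones being Postn (2.51 ± 0.30) and Fn1 (1.70 ± 0.20). Postn was at 6851, 1467 and 2424 CPM in the Cited1 gate and at 752, 361 and 432 CPM in preadipocytes. The basement membrane chains Col4a1 (-1.52 ± 0.12) and Col4a2 (-1.42 ± 0.12) were lower. Of the 36 adhesion complex genes, 6 were higher and 3 lower (median 0.00), with Zyx, zyxin (1.16 ± 0.12), and Kank1 (1.48 ± 0.31) higher and Cav1 (-1.14 ± 0.18) lower. Of the 27 heparan sulphate genes, 3 were higher and 1 lower (median 0.13), the lower one being Hspg2 (-0.82 ± 0.09) and the higher ones Hs3st1 (1.52 ± 0.40), Gpc1 (1.41 ± 0.37, higher in 2 of 3 mice) and Gpc3 (1.34 ± 0.37). Without mouse 2 the ligand counts were again 2 higher and 15 lower (median -0.52), those of the adhesion complex 5 and 2 (median -0.01) and those of heparan sulphate 1 and 2 (median 0.02). The calls of Postn (2.74), Fn1 (1.26), Col4a1 (-1.44), Col4a2 (-1.34), Zyx (1.10), Cav1 (-1.42), Gpc1 (1.90) and Hspg2 (-0.77) held without mouse 2, and those of Kank1 (1.12, adjusted p = 0.051), Hs3st1 (0.54, 0.33) and Gpc3 (0.59, 0.36) did not. Hs3st1 and Gpc3, which were high in progenitors, stood highest in mouse 2 (54.1 and 325 CPM), whose Cited1 gate also had the most of the progenitor marker Anxa3 (160.4, 583 and 361 CPM) and 24 of its 64 cells in the progenitor gate as well; their part in the result was not tested.

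The last comparison divides the preadipocyte gate by transcripts of Cd44, the hyaluronan receptor. The study first split its Icam1+ cluster by transcripts, clustering the single-cell data at higher resolution, and then sorted cells by surface protein. The gate here instead admits cells by Icam1 and Fabp4 UMIs together, also without an Icam1 UMI. Itga5 and Sdc4 were higher in the Cd44-high cells in every mouse, and they were the 2 members called. Both encode proteins of fibronectin adhesions, and Fn1 was higher in the same cells. Between progenitors and preadipocytes the directions differed: Fn1 was lower in preadipocytes, while Itga5 and Sdc4 were higher. Of the markers tested in the split, 2 of 6 for preadipocytes and 1 of 5 for regulatory cells were lower in Cd44-high cells. Among the progenitor markers 1 of 5 was higher. Preadipocyte-gate cells with at least 3000 UMIs were each thinned to 3000 UMIs, and 63, 64 and 105 cells with 2 or more Cd44 UMIs were compared with 1696, 1093 and 1375 cells without any.

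Of the 17 members tested, 2 were called, both higher, where 4.23% of 9856 genes were called (2.89% higher, 1.34% lower), and the second rule called Itga5 alone, against 1.59% (0.923% higher). The median difference was 0.13 over the members and -0.06 over all genes. Itga5 was at 111, 151 and 225 CPM in Cd44-high cells and at 48.7, 61.3 and 84.6 CPM in Cd44-low cells, without overlap. The ratios within the mice were 2.28, 2.46 and 2.66, and the log2 fold change was 1.36 ± 0.18 (adjusted p = 2.1e-09). Sdc4 was at 217, 188 and 289 CPM against 112, 107 and 185, with ratios of 1.93, 1.75 and 1.56 (0.80 ± 0.14, adjusted p = 1.9e-05). The call of Itga5 held under every alternative that was run, but without the mouse block only just (adjusted p = 0.0499). Its lowest difference over the alternatives was 0.91, under 2-fold. The call of Sdc4 was lost without the mouse block (adjusted p = 0.26). The calls on the thinned cells rest on 21, 29 and 71 UMIs of Itga5 and 41, 36 and 91 of Sdc4.

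The other 15 members tested were not called, and for most the precision was low. Itgb1 was at 524, 255 and 498 CPM against 537, 215 and 455 (0.13, 95% interval -0.10 to 0.35), and Sdc2 at 233, 208 and 254 CPM against 240.0, 237 and 234 (0.01, interval -0.26 to 0.28). Itgb3 (0.67, interval -0.14 to 1.47) was higher in 3 of 3 mice and Itga9 (0.90, interval 0.09 to 1.72, adjusted p = 0.27) in 2 of 3. Itgav, Itgb5, Itga11, Itga2b and Sdc1 had values in both directions among the mice, with intervals from -0.76 to 1.16. Itga7 and Itga8, on at most 5 UMIs per mouse in Cd44-high cells, could not be told apart between the sets at this depth. In a further setting the cells were not thinned and were split by their unthinned Cd44 UMIs. Its 2 sets therefore hold other cells, and its split can follow depth. There 9 members were among 2157 genes called, and Itga5 and Sdc4 stayed higher. Of the endothelial markers 1 could be tested and was lower in the Cd44-high cells, and of the mural markers 4 could be tested and 1 was lower, while Cdh5, Cldn5 and Pecam1 were at 0 CPM in the Cd44-high cells of all mice. With cells holding other-cell UMIs left out of both sets, the differences of Itga5 and Sdc4 were 1.33 and 0.86.

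**Figure D4:**
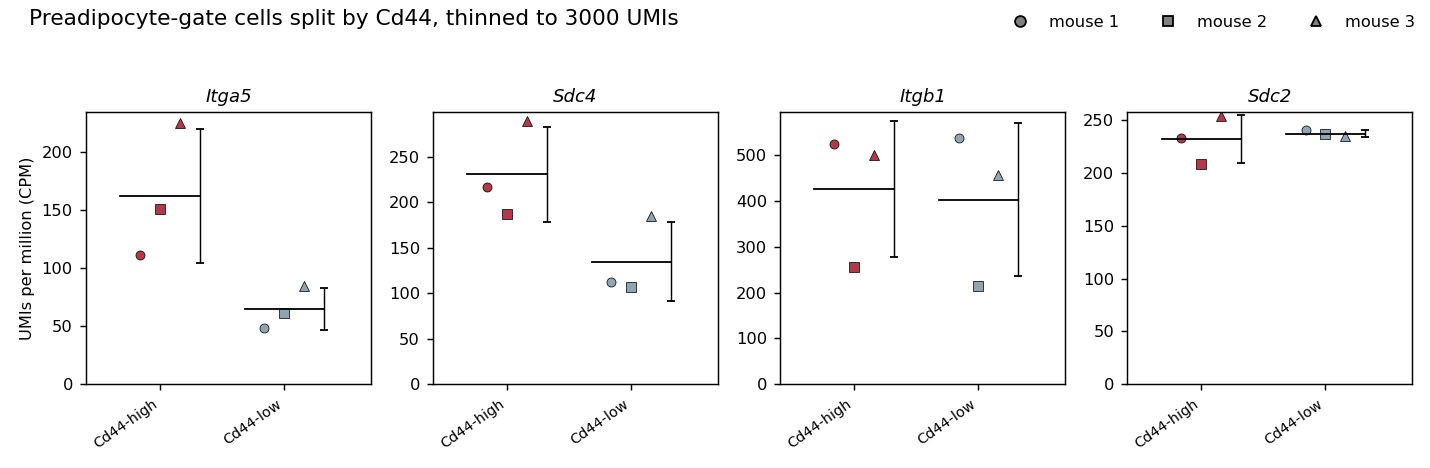
Level in CPM (vertical axes, linear, from 0) of Itga5, Sdc4, Itgb1 and Sdc2 in Cd44-high and Cd44-low preadipocyte-gate cells thinned to 3000 UMIs, with 1 point per mouse, a line at the mean and a bar for the SD (n = 3). Itga5 and Sdc4 are higher in Cd44-high cells in each mouse, while Itgb1 and Sdc2 overlap.

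Of the 32 ligands tested in this split, 6 were called, each higher (median 0.14 against -0.06 over all genes), where 2.89% of all genes were called higher. Fn1 was at 1513, 755 and 1171 CPM in Cd44-high cells and at 567, 386 and 573 CPM in Cd44-low cells (1.18 ± 0.09, adjusted p = 2.1e-20). Thbs1 (0.88 ± 0.12) and Fbn1, the microfibril protein fibrillin (0.49 ± 0.10), were higher in 3 of 3 mice, and Postn (0.85 ± 0.11) in 2 of 3. Of 35 adhesion complex genes, 2 were called, each higher (median 0.13): Enah, an actin filament elongator of adhesions (1.03 ± 0.20), and Zyx (0.99 ± 0.21). Of 25 heparan sulphate genes, Hs6st1, a sulphotransferase (1.60 ± 0.45), was higher and B3gat3, which builds the linker of the chains (-1.21 ± 0.38), lower (median 0.07).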

How the data were processed

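Single stromal cells of 3 libraries, each a mouse replicate of 1 condition, were analysed. Per the labels and file headers, the authors aligned the reads to mm10 with Cell Ranger (version 2.1.1 in the submitters' processing notes, 4.0.0 in the matrix headers) and deposited raw UMI counts for called cells, 13698, 6872 and 16220 barcodes. From these counts, cells were kept above 500 genes and under 5% mitochondrial UMIs, gated on raw UMIs, and summed per mouse and gate. Cells of the Cited1 gate that passed another gate were counted with Cited1, and 49, 115 and 95 cells that passed 2 of the others were left out. No doublet caller was run.

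Sums were tested with edgeR 4.0.16 (R 4.3.3, quasi-likelihood, TMM, gate and mouse as terms, 12 sums in 1 fit; 6 in the Cd44 split) on genes that averaged 1 CPM or more and had 50 UMIs or more in all, without the 8 gate genes, and without Cd44 in its split. P-values were adjusted by Benjamini-Hochberg over all genes tested and called at 0.05. A second rule asked in addition for a 2-fold change with the same sign in each mouse. The p-values rest on how far the differences between gates varied among these 3 libraries, since the fit takes out the mouse. They do not rest on the spread of the gene alone, which edgeR draws toward that of all genes. In the Cd44 split, with 6 sums, the spread came mostly from all genes. A small p-value there does not show that the gene itself varied little among the mice. The libraries themselves differed beyond sampling noise (chi-square per degree of freedom 73.0 to 258). The mouse block follows from the design, since the gates of a mouse come from 1 library. The mean correlation of same-mouse deviations was 0.280, 0.411 and 0.293 over 12225 genes. Depth was 94816520, 78108414 and 99328725 UMIs. UMI counts cover captured molecules, and intervals are those of the fits.

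Members were named where they reached 10 CPM in a gate or were called, and up to 4 called genes with the largest change were named for each pathway list and comparison. One gene that the rule would name is not reported here. The rule for the members and the lists were chosen with earlier results of these data known. Bmp3b, Ctgf and Cyr61 matched no symbol in the files. On counts simulated for preadipocytes against progenitors (12123 genes), 80 of 92 genes changed by 1 on the log2 scale and 105 of 108 changed by 2 were recovered, with 5 false calls. For the Cited1 gate 45 of 107 and 80 of 93 were recovered, and for the Cd44 split 24 of 114 and 58 of 86. The simulation gave all genes the same spread and had no difference between mice, unlike these libraries. Its counts therefore do not measure the false or missed calls in the data. Alternatives were DESeq2 1.42.0, 2 other normalizations, 2 other filters on low counts, no block, each mouse left out, other cell filters and other gate limits. Removal of cells with any UMI of 27 other-cell markers was added after the data had been seen.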

Additional observations from a re-analysis of the deposited data

How the results depend on the processing

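Over 5 comparisons, 1688 values under an alternative kept the side of the threshold of the reported value, or for counts stayed within 1.5 times of it. Differences called in neither fit were counted there also where their sign changed, as for Itga8 in the Cd44 split (0.39, lowest -0.46). A further 53 passed the threshold only under the alternative, 75 lost it and 35 counts moved further. Among differences called in either fit 1 reversed, which was Itgav in Cited1 vs preadipocyte. It was at -0.0668 with cells thinned to 3000 UMIs before gating. Without the replicate block, that is without pairing gates by mouse, the genes called were 3199 for preadipocytes against progenitors, 2575 for regulatory cells against progenitors, 1120 for regulatory cells against preadipocytes (5 members), 215 for Cited1 against preadipocytes (1 member) and 43 for the Cd44 split (1 member). The Cited1 comparison called 1542 genes without a filter on low counts, 537 (4 members) with thinned cells, 546 (2 members) without cells of 2 gates and 140 to 825 (1 to 5 members) with 1 mouse left out. Leaving out 1 mouse gave 2894 to 3835 genes for regulatory cells against progenitors, 1140 to 1851 (4 to 8 members) for regulatory cells against preadipocytes and 217 to 388 for the Cd44 split. The Cd44 split called 198 genes with DESeq2 and 2157 (9 members) without thinning, where cells were also split by unthinned Cd44 UMIs. The cause of these changes was not tested. The genes tested differed between settings, for example 8745 without mouse 1 and 16675 without a filter on low counts in the Cd44 split. These counts of members are given without the share of all genes and do not show whether members exceeded it. Scaling by library size alone moved the median of all genes by over 0.1 only for Cited1 against preadipocytes, to 0.15. Without mouse 3, Itgb4 and some other low genes were not tested. Raised gate limits and the removal of cells of 2 gates were not run for the Cd44 split, for which a lower Cd44 limit was run. Several members have under 10 UMIs in the Cited1 gate, which limits their precision there.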
